A study of Mus musculus with 8 samples.

Results

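Branched-chain amino acid breakdown was followed here through 10 genes of its mitochondrial route: Bcat2, Bckdha, Bckdhb, Dbt, Bckdk, Ppm1k, Ivd, Mccc1, Mccc2 and Hibadh. They were chosen by symbol from the 54532 genes of the deposited table, and each of the 10 symbols matched 1 row. RNA was sequenced from brown adipose tissue, the fat that burns fuel to make heat, in 4 wild-type samples (WT, labelled as control) and 4 samples (OGTBKO) from mice in which Ogt was knocked out in brown adipocytes alone. Its product attaches O-linked N-acetylglucosamine to proteins inside the cell. All mice lived at 23 °C on standard chow, were induced after 8 weeks with an agent that the labels spell gomaxifen, and gave tissue 2 months later, cleared of surrounding white fat. The labels name adipocytes as the cell type, but the RNA came from dissected tissue, whose other cells a knockout in brown adipocytes does not target. The sources used here do not give the strain, the sex or the promoter that drives the deletion. The title of the series names signals from adipocytes to the vessels of brown fat. The comparison described here asks how the genes of this amino acid route stood in the same tissue.

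Leucine, isoleucine and valine share their first steps. A transaminase removes the amino group, and the branched-chain ketoacid dehydrogenase complex, built of a decarboxylase (E1), a transacylase core (E2) and a shared dihydrolipoamide dehydrogenase (E3), commits the carbon skeletons to oxidation. A kinase switches the complex off by phosphorylating E1 and a phosphatase switches it on again, after which leucine, isoleucine and valine follow separate arms to acetyl-CoA, acetoacetate or succinyl-CoA. Brown fat takes up these amino acids and oxidises them in its mitochondria when it makes heat.

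In OGTBKO tissue the gene of the inhibitory kinase, Bckdk, fell, and it was the only one of the 10 genes past the test. Of 22 other genes of the route tested, 5 fell and 0 rose. Those that fell were Aldh6a1 and Acad8 (valine), Acadsb (isoleucine), the cobalamin-handling gene Mmachc, and Oxct1, which lets tissues use ketone bodies. The shares called were 10% and 22.7%, beside 15.6% of all genes tested (8.11% higher and 7.46% lower). Both lists were chosen with earlier results of these data known, so the shares are a description only. Among 19 alternative fits, the call ended in 10 for Bckdk, 11 for Acadsb, 10 for Acad8, 9 for Oxct1, 1 for Aldh6a1 and 0 for Mmachc. The 3 members of the leucine arm, Ivd, Mccc1 and Mccc2, had log2 changes between 0.02 and 0.13, none past the test.

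Promoter sequences are shown for the kinase and its opposing phosphatase, and for the pair of pathway genes with the smallest p, Mmachc and Aldh6a1. They come from RefSeq on GRCm38.p6, the assembly that mm10 names, which held 11 windows for 9 of the 10 genes. Each runs 5′ to 3′ on the gene's strand over the 250 bases before the start. Capitals mark the letters of a CCAAT box (CCAAT, or ATTGG where it lies on the opposite strand) or a GC box (GGGCGG, or CCGCCC on the opposite strand). The Bckdk window is chr7:127903823-127904072 (plus strand), that of Ppm1k is chr6:57535488-57535737 (minus strand), that of Mmachc is chr4:116708386-116708635 (minus strand), and that of the upstream of the starts listed for Aldh6a1 is chr12:84451025-84451274 (minus strand).
Bckdk: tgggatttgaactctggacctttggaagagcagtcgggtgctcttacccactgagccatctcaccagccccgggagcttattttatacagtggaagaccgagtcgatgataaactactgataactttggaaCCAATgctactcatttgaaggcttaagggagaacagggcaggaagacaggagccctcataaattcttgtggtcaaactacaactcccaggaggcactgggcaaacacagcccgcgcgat
Ppm1k: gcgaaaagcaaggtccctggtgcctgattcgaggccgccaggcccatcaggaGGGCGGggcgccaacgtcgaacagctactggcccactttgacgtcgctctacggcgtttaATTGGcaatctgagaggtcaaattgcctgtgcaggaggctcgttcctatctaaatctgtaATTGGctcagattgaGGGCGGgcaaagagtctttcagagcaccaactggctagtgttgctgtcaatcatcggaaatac
Mmachc: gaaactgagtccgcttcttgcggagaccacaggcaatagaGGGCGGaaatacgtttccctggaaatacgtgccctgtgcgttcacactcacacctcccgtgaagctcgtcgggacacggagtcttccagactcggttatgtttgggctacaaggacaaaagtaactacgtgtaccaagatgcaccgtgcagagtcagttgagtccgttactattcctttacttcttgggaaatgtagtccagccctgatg
Aldh6a1: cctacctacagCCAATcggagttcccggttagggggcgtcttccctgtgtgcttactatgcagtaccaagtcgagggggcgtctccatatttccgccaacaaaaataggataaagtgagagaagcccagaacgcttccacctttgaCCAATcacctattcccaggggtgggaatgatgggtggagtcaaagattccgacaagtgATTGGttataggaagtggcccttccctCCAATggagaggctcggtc

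These 4 windows differ in what they hold. That of Bckdk has 1 CCAAT box, whose first base lies 119 bases before the start. The Ppm1k window has 2 CCAAT boxes and 2 GC boxes, the Mmachc window 1 GC box and 0 CCAAT boxes, and the Aldh6a1 window 4 CCAAT boxes. Over the member windows, 7 of 11 held a CCAAT box on either strand, against 33.9% of all 32851 windows of the same 250 bases, and 4 of 11 a GC box, against 32.7%. An E-box (CACGTG) was found in 1 of the 11, that of Mccc2, against 6.02% of all windows. Neither the palindromic NRF1 site nor the ERR site (TNAAGGTCA), searched on both strands, occurred in these windows, and they occurred in 0.78% and 1.14% of all windows. A match describes the letters only.

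Values are FPKM (fragments per kilobase, scaled to a common depth), which divide by the gene length given in the table; an order of levels between genes holds for those lengths only. Each library held 13393962 to 15897920 reads in genes, and between 419 (Ppm1k, WT 1) and 7251 (Hibadh, WT 4) of them in each member. Changes are differences of log2(FPKM + 0.5) between OGTBKO and WT from limma, with their SE or 95% interval. A gene passed at a Benjamini-Hochberg adjusted p under 0.05 over all 13171 genes tested. Ogt itself lay at 22.5 to 33.1 FPKM in WT and at 10.7 to 14.5 FPKM in OGTBKO libraries (log2 -1.03 ± 0.14, limma adjusted p = 0.00511). Across all genes 2050 passed (15.6%), 1068 higher and 982 lower; with library totals as the denominator the split was 980 higher and 249 lower. Of 7 brown adipocyte markers 2 fell, 0 rose and 5 did not pass, among them Elovl3 (log2 1.75, limma adjusted p = 0.111) and Cox8b (log2 0.64, adjusted p = 0.0838). The 2 that fell were Prdm16 (log2 -0.49, adjusted p = 0.0466) and Ucp1, which lay at 904 to 2524 FPKM over the 8 libraries (log2 -0.999, limma adjusted p = 0.0113; 0.0516 with library totals). Skeletal muscle transcripts set 2 libraries apart: the 6 muscle markers summed to 438 FPKM in WT 1 and 1247.5 FPKM in OGTBKO 1, against 32.1 FPKM in WT 4 and at most 3.82 FPKM in the other 5, with Myh4, Myh1, Ckm, Tnnt3 and Pvalb at 0 in at least 1 library. White adipocyte markers summed to 51.4 to 123 FPKM in WT and 155 to 202 FPKM in OGTBKO libraries, and their part in the results was not tested. Muscle also breaks down branched-chain amino acids, so the fit was repeated without WT 1 and OGTBKO 1. No label says that each numbered sample is a separate animal, so the p-values cover only the spread among the samples, which may be technical.

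Among the 10 genes 1 was lower, 0 were higher and 9 did not pass, a called share of 10% beside the 15.6% of all genes tested (8.11% higher and 7.46% lower). At an unadjusted p under 0.05, 2 were lower and 1 was higher, where 32.8% of all genes were past that mark (16.7% higher and 16.1% lower). The groups did not overlap for 2 of the 10, Bckdk and Dbt, beside 22.5% of all genes. The median log2 change of the 10 was -0.05 and that of all genes tested -0.00213. The share called among these genes was thus not above that of genes at large. All 10 passed the filter on low values, a mean of at least 0.5 FPKM.

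**Figure D1:**
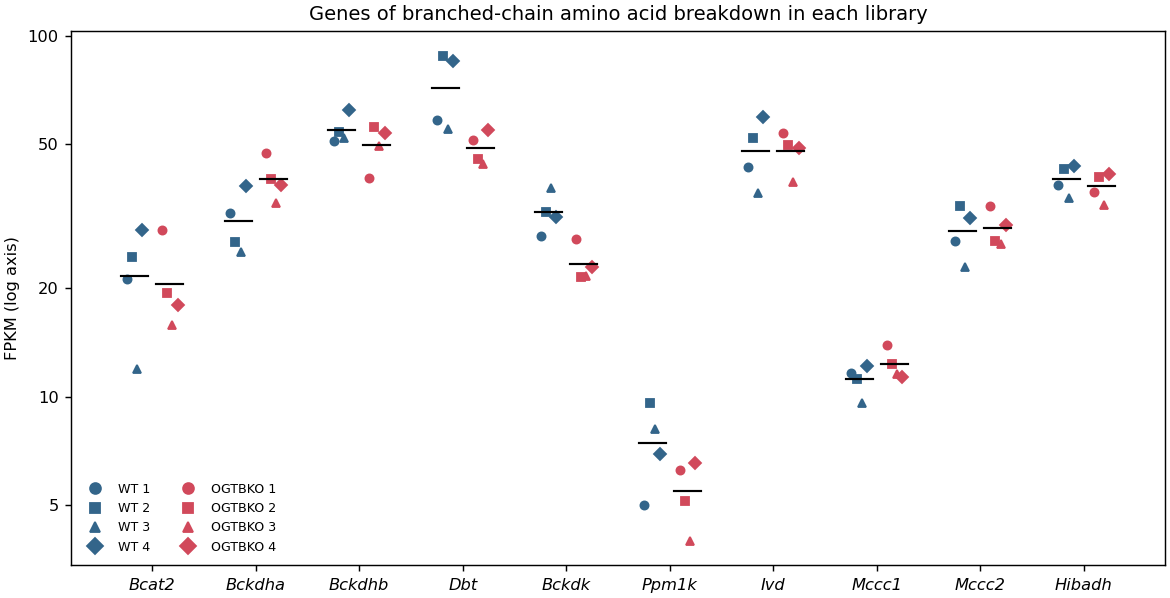
FPKM of the 10 genes (log axis) in each of the 4 WT (blue) and 4 OGTBKO (red) libraries, with a bar at each group's mean; the marker shape gives the library's number. The groups are separate for Bckdk and Dbt and overlap for the other 8 genes.

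The first step belongs to Bcat2, the mitochondrial branched-chain aminotransferase. It measured 21.1, 24.4, 11.9 and 28.9 FPKM in WT 1 to WT 4 and 29.0, 19.4, 15.7 and 18.0 FPKM in OGTBKO 1 to OGTBKO 4. The spread within each group was the widest of the 10 genes, with an SD of 33.3% of the mean in WT and 28.4% in OGTBKO libraries. WT 3 was lowest and OGTBKO 1 highest, with WT 4 close behind OGTBKO 1. Muscle transcripts were present in OGTBKO 1 and in WT 1, which was at 21.1 FPKM, and their part in these levels was not tested. The difference was not detectable at this spread (log2 -0.04, 95% interval -0.66 to 0.58, limma adjusted p = 0.942). It was -0.20 without WT 1 and OGTBKO 1 (adjusted p = 0.679). Its cytosolic counterpart Bcat1 was near the floor in both groups, at 0.0912 to 0.596 FPKM in WT and 0.0771 to 0.203 FPKM in OGTBKO libraries, and was below the filter. Slc25a44, the carrier that brings branched-chain amino acids into the mitochondria, had means of 26.1 ± 1.77 FPKM in WT and of 28.6 ± 3.49 FPKM in the OGTBKO group (SD, n = 4 each) and differed by 0.12 in log2 (95% interval -0.13 to 0.38, adjusted p = 0.479). The difference was 0.02 without WT 1 and OGTBKO 1 (adjusted p = 0.930).

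No gene of the dehydrogenase complex passed the test in the main fit, and their changes were not tested against each other. Bckdha, the E1 alpha subunit that carries the phosphorylated sites, measured 32.2, 26.8, 25.2 and 38.3 FPKM in WT and 47.4, 40.02, 34.4 and 38.5 FPKM in OGTBKO libraries. Its OGTBKO values lay toward the upper end, overlapping only with WT 4. The log2 change was 0.39 ± 0.15 (95% interval 0.05 to 0.74) and did not pass after adjustment (limma adjusted p = 0.112). Bckdhb, the E1 beta subunit that pairs with it, measured 50.9, 53.9, 52.0 and 62.0 FPKM in WT and 40.4, 55.9, 49.5 and 53.8 FPKM in OGTBKO libraries. These groups overlapped, OGTBKO 1 being the lowest of all, and the log2 change was -0.14 (95% interval -0.42 to 0.15, adjusted p = 0.485), or -0.07 without OGTBKO 1 and WT 1 (adjusted p = 0.687).

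Dbt, the E2 core that carries the lipoyl arm, had the highest mean of the 10 by the gene lengths of the table, and ranked below Hibadh, Ivd and Bckdhb by the lengths of principal transcripts. It measured 58.2, 88.1, 55.1 and 85.2 FPKM in WT and 51.3, 45.5, 44.0 and 54.7 FPKM in OGTBKO libraries. All OGTBKO values were below all WT values, although WT 1 and WT 3 stood close to them and WT 2 and WT 4 far above. The log2 change was -0.52 ± 0.17 (95% interval -0.91 to -0.13), not past the test (limma adjusted p = 0.0710). Without WT 3 it passed (log2 -0.63, adjusted p = 0.0364), as it did with libraries weighted by their quality (log2 -0.71, adjusted p = 0.0101). The weighted fit called 3516 genes, against 2050 in the main fit. Dbt did not pass in the other 17 of 19 alternatives. Among these were library totals (log2 -0.41, adjusted p = 0.271) and removal of each library's trend with GC content and length (log2 -0.40, adjusted p = 0.160). Dld, the E3 subunit shared with the pyruvate and oxoglutarate complexes, stood far above its partners at 294 ± 29.3 FPKM in WT and 234 ± 29.9 FPKM in OGTBKO libraries (SD, n = 4 each). Its groups did not overlap, and its log2 change of -0.33 did not pass (adjusted p = 0.114). Of 19 alternatives it passed in 1, with libraries weighted by quality (adjusted p = 0.0428). The log2 change of Dld was -0.16 with the trend with GC content and length removed (adjusted p = 0.387). It was -0.21 with library totals (adjusted p = 0.452).

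The kinase gene Bckdk was the one member called. It measured 27.8, 32.4, 37.9 and 31.4 FPKM in WT and 27.3, 21.4, 21.6 and 22.9 FPKM in OGTBKO libraries. The groups did not overlap, but WT 1 and OGTBKO 1, the libraries with muscle transcripts, nearly met. The WT mean was 32.4 ± 4.20 FPKM and the OGTBKO mean 23.3 ± 2.77 FPKM (SD, n = 4 each). This gave a log2 change of -0.46 ± 0.12 (limma adjusted p = 0.0369). Without WT 1 and OGTBKO 1 it was -0.61 ± 0.11 (adjusted p = 0.0194). The call ended when WT 2, WT 3, WT 4, OGTBKO 2, OGTBKO 3 or OGTBKO 4 was left out (adjusted p between 0.0574 and 0.105) and with library totals as the denominator (log2 -0.35, adjusted p = 0.0989). In these tissue samples fewer cells of a type and less RNA per cell cannot be told apart.

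Ppm1k, the mitochondrial phosphatase that undoes the work of the kinase, was the least abundant of the 10. It measured 5.02, 9.62, 8.16 and 6.94 FPKM in WT and 6.26, 5.13, 3.99 and 6.56 FPKM in OGTBKO libraries. WT 1 lay among the OGTBKO values, and the change did not pass (log2 -0.39, 95% interval -0.86 to 0.07, limma adjusted p = 0.219). Without WT 1 and OGTBKO 1 the log2 change was -0.62, over 1.5 times as large, and still did not pass (adjusted p = 0.0694). The ratio of kinase to phosphatase was 5.53, 3.37, 4.65 and 4.53 in WT and 4.37, 4.17, 5.41 and 3.49 in OGTBKO libraries. Its means of 4.52 ± 0.891 and 4.36 ± 0.795 (SD, n = 4 each) were closer than the spread within either group.

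Within the complex, the ratios of Bckdha to Bckdhb and of Dbt to Bckdha did not overlap between the groups. Both hold Bckdha, and Dbt by itself did not overlap either. No test was run on the ratios, and how often ratios of other genes separate the groups was not counted. Of single genes, 22.5% did not overlap. Bckdha to Bckdhb, the ratio of the E1 partners, was 0.485 to 0.633 in WT and 0.696 to 1.18 in OGTBKO libraries, with OGTBKO 1 above all others and the other 3 at 0.696 to 0.716. Dbt to Bckdha, core to E1 alpha, was 1.80 to 3.28 in WT and 1.08 to 1.42 in OGTBKO libraries. Each of these ratios joins genes of unlike base composition. Transcript GC content was 57.9% for Bckdha, 50.3% for Bckdhb and 42.1% for Dbt, and over all genes the median log2 change went from -0.19 in the lowest of 4 equal GC bins to 0.16 in the highest. After each library's trend with GC and length was taken out, the log2 change was 0.12 for Bckdha, -0.31 for Bckdhb and -0.40 for Dbt, none of them past the test. The part of base composition in these ratios was not tested.

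**Figure D2:**
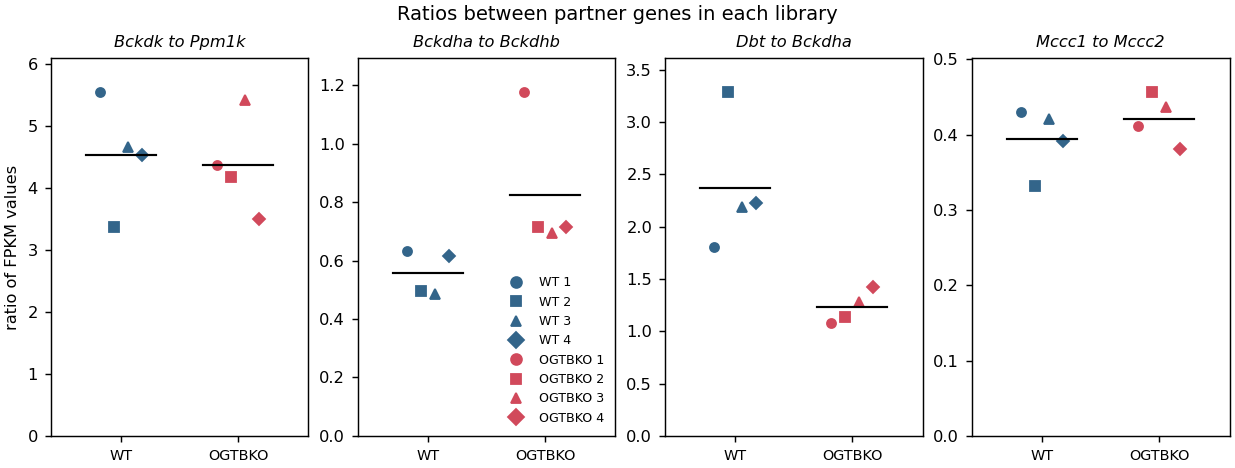
Ratios of FPKM values between partner genes in each library, with a bar at each group's mean (blue WT, red OGTBKO; marker shape gives the library's number). Bckdk to Ppm1k and Mccc1 to Mccc2 overlap between the groups, while Bckdha to Bckdhb and Dbt to Bckdha do not.

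Bckdk ran against that trend. Its transcript, at 52.7% GC, lies in the third GC bin, where the median log2 change of all genes was 0.07. With the trend removed its log2 change was -0.57 (limma adjusted p = 0.0205), and with the trend in place -0.46. Dbt, Ppm1k, Mccc1 and Hibadh, with log2 changes of -0.52, -0.39, 0.13 and -0.07, lie in the bin of lowest GC, where 84 genes were higher and 581 lower.

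**Figure D3:**
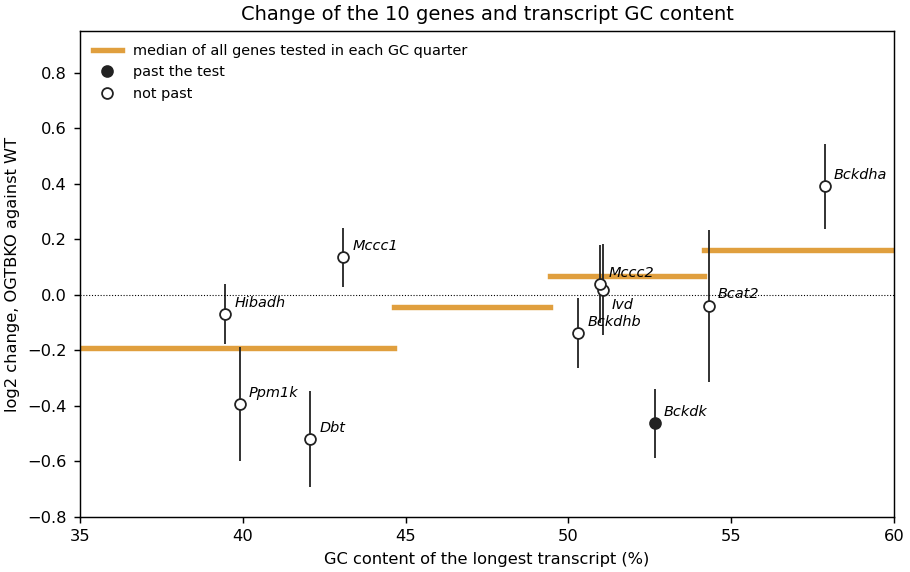
Log2 change with its SE for the 10 genes against the GC content of the longest transcript; orange lines give the median change of all genes tested in each of 4 GC bins. Bckdk, the filled point, lies below the line of its bin at -0.46 against 0.07.

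The 3 members of the leucine arm did not pass the test. Ivd, the dehydrogenase that acts on isovaleryl-CoA, measured 43.1, 52.0, 36.5 and 59.4 FPKM in WT and 53.6, 49.9, 39.2 and 49.0 FPKM in OGTBKO libraries. The WT values enclosed those of OGTBKO tissue, with a log2 change of 0.02 (95% interval -0.35 to 0.39, limma adjusted p = 0.954). Mccc1, the biotin-bearing subunit of the next enzyme, methylcrotonyl-CoA carboxylase, measured 11.6, 11.2, 9.60 and 12.2 FPKM in WT and 13.9, 12.3, 11.6 and 11.4 FPKM in OGTBKO libraries. Its interval was among the narrowest, from -0.11 to 0.38 around a log2 change of 0.13 (adjusted p = 0.422). Mccc2, the partner subunit, measured 27.0, 33.8, 22.9 and 31.2 FPKM in WT and 33.8, 27.0, 26.5 and 29.8 FPKM in OGTBKO libraries. Here too the groups overlapped, with WT 3 below all OGTBKO values (log2 0.04, 95% interval -0.28 to 0.35, adjusted p = 0.881). Without WT 1 and OGTBKO 1 the log2 change was -0.08 for Ivd and -0.06 for Mccc2, neither past the test. The ratio of Mccc1 to Mccc2 held between 0.332 and 0.456 over the 8 libraries. Auh, also listed for this arm, did not pass either, so that 0 of the 4 genes described for it were called.

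In the valine arm Hibadh and the genes of the steps just before it, Hibch and Echs1, did not pass, while Acad8 further upstream and Aldh6a1 downstream fell. Hibadh, which oxidises 3-hydroxyisobutyrate, measured 38.7, 42.8, 35.6 and 43.6 FPKM in WT and 36.9, 40.7, 34.0 and 41.3 FPKM in OGTBKO libraries. The ranges were nearly the same (log2 -0.07, 95% interval -0.31 to 0.18, limma adjusted p = 0.703; the log2 change was 0.05 with library totals and 0.23 once the trend with GC and length was removed). Hibch, which releases 3-hydroxyisobutyrate from its CoA ester, had means of 42.3 ± 4.61 and 44.1 ± 5.97 FPKM in WT and OGTBKO samples (SD, n = 4 each; log2 0.06, 95% interval -0.23 to 0.34, adjusted p = 0.804). Echs1, the hydratase before it, had a log2 change of 0.10 (95% interval -0.13 to 0.34, adjusted p = 0.539). Aldh6a1, the dehydrogenase that takes the product of HIBADH, measured 153, 176, 158 and 162 FPKM in WT and 107, 96.2, 68.3 and 93.7 FPKM in OGTBKO libraries. Every OGTBKO value was below every WT value, OGTBKO 3 being lowest (log2 -0.84 ± 0.14, adjusted p = 0.00938). With the GC and length trend removed the log2 change of Aldh6a1 was -0.66 (adjusted p = 0.0219). Its call ended when a replicate block was added to that removal (adjusted p = 0.0612). Acad8, which oxidises isobutyryl-CoA ahead of ECHS1 and HIBCH, measured 14.8, 18.0, 13.4 and 16.2 FPKM in WT and 12.1, 10.6, 9.20 and 11.7 FPKM in OGTBKO libraries. Its groups were separate as well (log2 -0.50 ± 0.12, adjusted p = 0.0298; 0.0688 with the GC and length trend removed). Whether Hibadh changed less than these genes was not tested.

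Over the 23 other genes of the route described here, 22 were tested, of which 5 fell, 0 rose and 17 did not pass, a called share of 22.7% beside the 15.6% of all genes. In the direction of falls alone the share of all genes was 7.46%. The list was chosen with earlier results of these data known and was not tested as a set, so its share is a description only. Besides enzymes of the route it holds genes of cobalamin and biotin handling, Mmachc among them, and the regulator Klf15. At an unadjusted p under 0.05, 8 of the 22 were lower and 4 higher, where 16.1% of all genes were lower and 16.7% higher. The groups did not overlap for 8 with lower and 3 with higher OGTBKO values, beside 11.4% and 11.1% of all genes. The median log2 change was -0.09. The log2 changes lay on both sides of 0, with 12 below and 10 above.

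**Figure D4:**
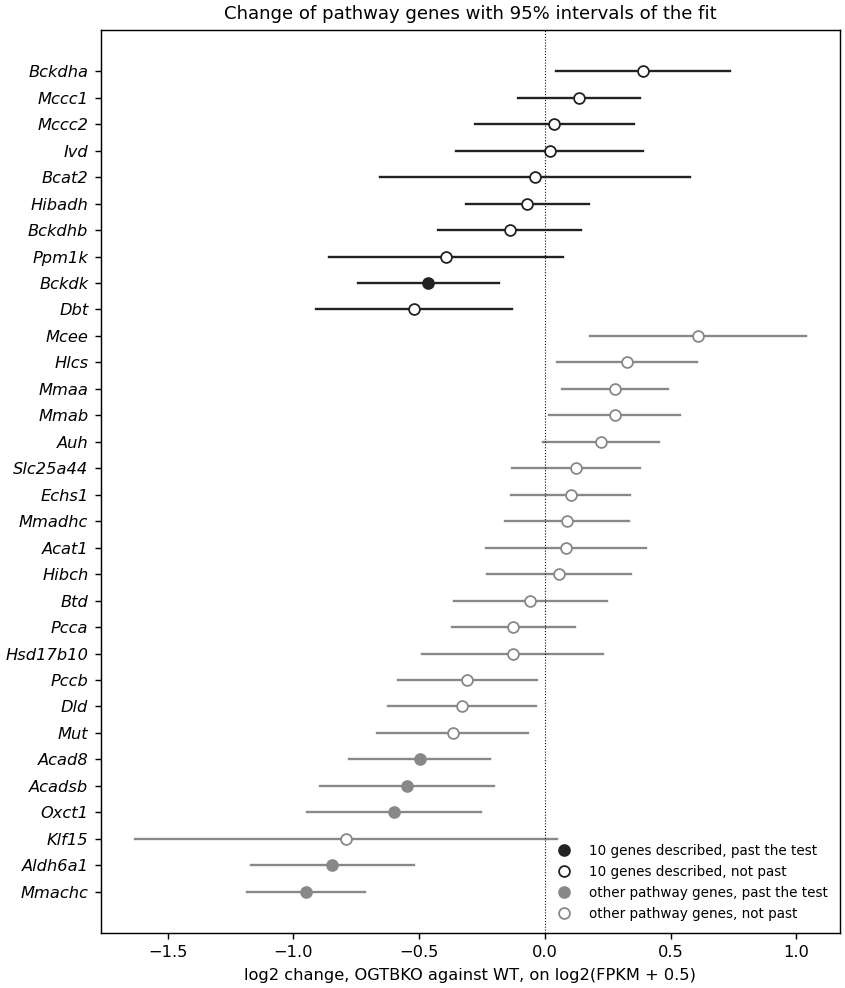
Log2 change (OGTBKO against WT) with 95% intervals for the 10 genes (black) and the 22 other pathway genes tested (grey); filled points passed the test. The filled points are Bckdk among the 10, and Acad8, Acadsb, Oxct1, Aldh6a1 and Mmachc among the others, all to the left of 0.

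Mmachc, which processes cobalamin for the mutase at the end of the valine and isoleucine arms, had the smallest p. It measured 25.4, 28.5, 22.3 and 25.9 FPKM in WT and 12.4, 14.4, 12.5 and 12.5 FPKM in OGTBKO libraries. The OGTBKO values formed a tight cluster well under all WT values (log2 -0.95 ± 0.10, limma adjusted p = 0.00236), and the call held in all 19 alternatives fitted. The other 5 genes of cobalamin and biotin handling did not pass, and neither did the 4 genes that carry propionyl-CoA to succinyl-CoA, Pcca, Pccb, Mcee and Mut. Mcee was nonetheless higher in every OGTBKO library (48.6 to 56.6 FPKM) than in any WT library (22.2 to 43.4 FPKM). Its log2 change was 0.61 (adjusted p = 0.0593). Mmaa and Hlcs also lay above WT without overlap, and Pccb and Mut below.

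In isoleucine breakdown Acadsb, the dehydrogenase of short branched acyl-CoAs, measured 34.1, 41.7, 33.1 and 40.8 FPKM in WT and 32.0, 27.2, 19.9 and 23.6 FPKM in OGTBKO libraries. OGTBKO 1 came close to the lowest WT values, though the groups did not overlap (log2 -0.55 ± 0.15, limma adjusted p = 0.0432). This call ended once the trend with GC and length was removed (adjusted p = 0.170). Without WT 1 and OGTBKO 1 the log2 change was -0.70 (adjusted p = 0.0287). Oxct1, which activates acetoacetate, an end product of leucine, measured 76.3, 94.2, 82.5 and 97.2 FPKM in WT and 66.2, 62.3, 43.0 and 61.0 FPKM in OGTBKO libraries. Its groups did not overlap (log2 -0.60 ± 0.15, adjusted p = 0.0320). Klf15, a transcription factor known to drive amino acid breakdown genes, ranged from 6.70 to 23.6 FPKM in WT and from 4.88 to 12.8 FPKM in OGTBKO libraries and did not pass (log2 -0.79, 95% interval -1.63 to 0.05, adjusted p = 0.175). It passed without WT 3 (log2 -1.11, adjusted p = 0.0447) and with libraries weighted by quality (log2 -1.13, adjusted p = 0.0275), and was at -0.53 without WT 4.

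The calls of Acadsb, Acad8 and Oxct1, like that of Bckdk, ended in most fits without 1 library. Calls over all genes also fell from 2050 to 784 without WT 2 and 1195 without WT 4. They fell to 1175, 692 and 945 without OGTBKO 2, OGTBKO 3 and OGTBKO 4. In these fits the log2 changes stayed at -0.54 to -0.39 for Bckdk and -0.66 to -0.44 for Acadsb. They were -0.57 to -0.42 for Acad8 and -0.67 to -0.46 for Oxct1. Acadsb lost its call in 6 of the 8 fits without 1 library: those without WT 1, WT 2, WT 4, OGTBKO 2, OGTBKO 3 and OGTBKO 4. Acad8 and Oxct1 lost theirs in 5 each, those without WT 2, WT 4, OGTBKO 2, OGTBKO 3 and OGTBKO 4. Aldh6a1 and Mmachc lost theirs in 0. With library totals as the denominator the calls of Acadsb, Acad8 and Oxct1 ended, and those of Aldh6a1 and Mmachc held.

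**Figure D5:**
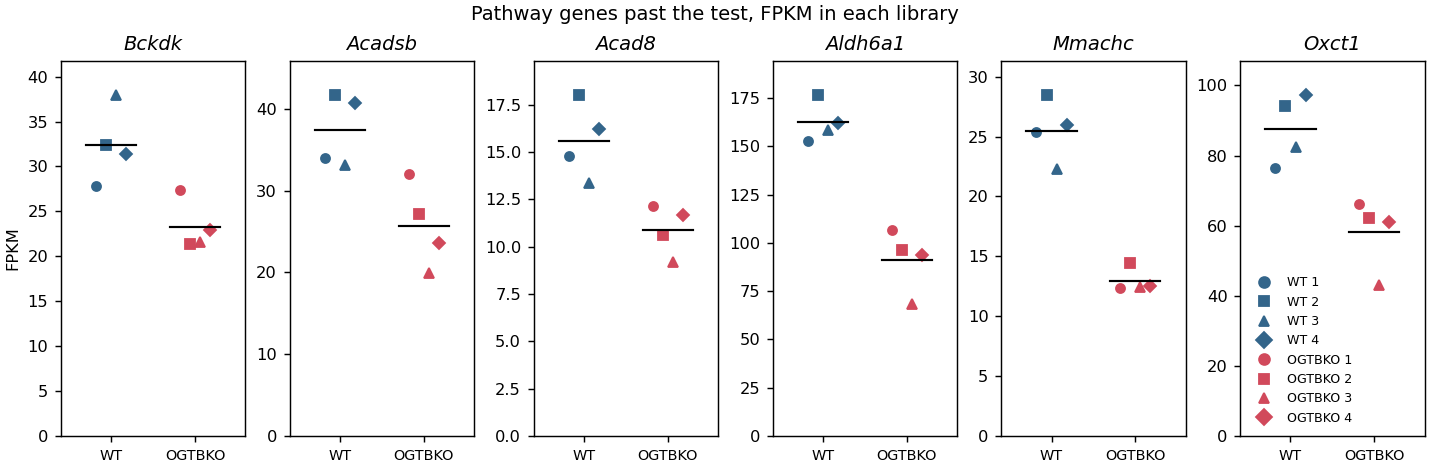
FPKM of the 6 pathway genes past the test in each library, each axis starting at 0, with a bar at the group mean (blue WT, red OGTBKO; marker shape gives the library's number). The groups are separate in every panel, narrowly for Bckdk and Acadsb and widely for Aldh6a1 and Mmachc.

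The sister complexes for pyruvate, oxoglutarate and oxoadipate are built on the same plan and share E3. Of the 14 genes listed for them, 3 fell, 1 rose and 10 did not pass, a called share of 28.6% beside the 15.6% of all genes. This list too was chosen with earlier results of these data known. The number that fell was 1 with library totals, with no filter on low values or with the trend with GC and length removed. The regulators moved in both directions: Pdk4, a kinase that switches the pyruvate complex off, fell from 675 ± 37.8 to 388 ± 76.0 FPKM (log2 -0.82, limma adjusted p = 0.0119). Pdk3, another such kinase, rose from 1.53 ± 0.370 to 3.88 ± 1.22 FPKM (SD, n = 4 each; log2 1.08, limma adjusted p = 0.0151). Pdpr, a regulator of the pyruvate dehydrogenase phosphatase, also fell (log2 -0.67, adjusted p = 0.0432), as did Dhtkd1, the E1 of the oxoadipate complex (log2 -0.51, adjusted p = 0.0379). The Pdpr call ended without WT 2, WT 3, WT 4, OGTBKO 2, OGTBKO 3 or OGTBKO 4, and that of Dhtkd1 without WT 1, WT 2, WT 4, OGTBKO 2, OGTBKO 3 or OGTBKO 4. The Dhtkd1 call also ended without both WT 1 and OGTBKO 1 (adjusted p = 0.0510) and once the trend with GC and length was removed (adjusted p = 0.0845). Those of Pdk4 and Pdk3 held without any 1 library. Dhtkd1 aside, the catalytic subunits Pdha1, Pdhb, Dlat, Ogdh and Dlst, like Bckdha, Bckdhb and Dbt, did not pass in the main fit.

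By the gene lengths of the table the 10 genes stood in the order Dbt, Bckdhb, Ivd, Hibadh, Bckdha, Mccc2, Bckdk, Bcat2, Mccc1 and Ppm1k by their mean over 8 libraries, from 60.3 down to 6.46 FPKM. Of the 9 neighbours in that order, 3 kept their order in all 8 libraries: Ivd above Hibadh, Bcat2 above Mccc1, and Mccc1 above Ppm1k. The rest changed places in at least 1 library, Mccc2 and Bckdk in 3. Library identity showed across members. WT 3 was the lowest WT library for 7 of the 10 genes and OGTBKO 3 the lowest OGTBKO library for 7, while WT 4 was the highest WT library for 6 and OGTBKO 1 the highest OGTBKO library for 6. The SD relative to the mean was larger in WT than in OGTBKO libraries for 9 of the 10 genes, Bckdhb being the exception. WT 3 also had the largest share of reads in mitochondrial genes, 39.4%, against 25.2% to 32.2% in the other 7 libraries; its part in these levels was not tested.

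On mm10 the 10 genes lie on 6 chromosomes, with starts and ends as in GENCODE M21. Bckdk spans chromosome 7, 127904082 to 127910221, plus strand, with 12 exons in its principal transcript, and no gene model in the table overlaps it. Dbt spans chromosome 3, 116513070 to 116549981, plus strand, and Bckdha chromosome 7, 25629946 to 25658981, minus strand. Bckdha overlaps the protein-coding gene B3gnt8 on the opposite strand over 5155 bases, and since no source used here says whether strand entered the counting, their reads may not be told apart there. B3gnt8 measured at most 0.490 FPKM, against at least 25.2 FPKM for Bckdha.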

How the data were processed

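RNA from 8 brown adipose tissue samples was made into libraries with a NEBNext Ultra kit, per the labels' protocols. Per the submitters' processing notes, the authors used HISAT2 2.0.5, featureCounts 1.5.0-p3 and mm10, and deposited 1 table of FPKM values with gene lengths; strand use is not given in the sources used here. FPKM times length gave whole multiples of 1 read in 100% of values (tolerance 0.001), so reads were back-calculated. The deposited denominators were 0.790 to 1.13 times the library totals, so values were already scaled between libraries. Pairs of libraries within a group differed by a chi-square of 16.0 to 99.6 per degree of freedom, more than counting noise gives. Each library was counted as its own sample, though these values cannot tell separate animals from technical spread.

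Genes with a mean of at least 0.5 FPKM were tested with limma 3.58.1 in R 4.3.3 (eBayes with trend, two-sided) on log2(FPKM + 0.5), which understates changes of low genes. The steps were tested on simulated data. GC content came from the longest GENCODE M21 transcript of each gene, and the trend removal used splines of 4 degrees of freedom for GC and for length. Promoters came from the RefSeq table on GRCm38.p6.

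The members and lists were chosen with earlier results of these data known. Of the genes first listed for the route, 1 is not reported here and is in no count of the list. Named were the 10 members, pathway genes that passed, Slc25a44, Bcat1, Dld and Klf15, up to 6 genes of the sister complexes that passed, Ogt, Ucp1, and the 5 genes most like the member with the smallest p. Of the cell type lists, brown adipocyte, white adipocyte, adipocyte, endothelial, macrophage, skeletal muscle, fibroblast, B cell, T cell and Schwann cell markers were summed per library. The alternatives were other pseudocounts, filters, denominators and weights, trend removal, a replicate block and leaving out each library; the voom fit and the fit without WT 1 and OGTBKO 1 were added after seeing the data.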

Additional observations from a re-analysis of the deposited data

Results flagged for a closer look

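Among 50 groups of 4 libraries examined over the named genes, 2 held a library far from the other 3, where chance gives about 1 in 20. Mmachc measured 14.4 FPKM in OGTBKO 2 and 12.4 to 12.5 FPKM in the other OGTBKO libraries. Bcat1 measured 0.596 FPKM in WT 1 and 0.0912 to 0.142 FPKM in the other WT libraries; WT 1 also held 438 FPKM of skeletal muscle markers, whose part in the value was not tested, and OGTBKO 1, with 1247.5 FPKM of them, had Bcat1 at 0.124 FPKM.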

How the results depend on the processing

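The number of genes called was 1229 with no filter on low values, 1229 with library totals, 3516 with array weights, 888 with a replicate block, 492 with a replicate block and the GC and length trend removed, and 692 to 2122 when 1 library was left out. The members called lower numbered 0 with no filter, with library totals and with either block fit, 2 with array weights, and 0 to 1 when 1 library was left out. The other pathway genes called lower numbered 2 with no filter, 2 with library totals, 9 with array weights, 2 with the replicate block, 1 with the block and the trend removed, and 2 to 6 when 1 library was left out. Those called higher numbered 1 with array weights, 1 with the trend removed, 1 with voom, and 0 to 1 when 1 library was left out. The median log2 change of the members was -0.14 to 0.03 when 1 library was left out and 0.06 with library totals, where the median of all genes was 0.09.

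Log2 changes that turned in sign all belonged to genes not past the test. With library totals, where the median of all genes was 0.09 in place of -0.00213, Bcat2 was at 0.072 and Hibadh at 0.0453. With array weights Ivd was at -0.13 and Mccc2 at -0.11. With the trend removed, with or without the replicate block, Ivd was at -0.0133, Mccc2 at -0.0852, Hibadh at 0.23 and Slc25a44 at -0.00098. Without WT 1 and OGTBKO 1, Ivd was at -0.0784 and Mccc2 at -0.0559. Leaving out 1 library gave -0.29 to 0.12 for Bcat2, -0.10 to 0.13 for Ivd and -0.0641 to 0.12 for Mccc2. The causes were not tested.

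Deviations from the group means of same-numbered libraries correlated at 0.22, 0.17, 0.01 and -0.01 across genes. Libraries of unlike number correlated at -0.17 to 0.12, and 4 of 8 libraries correlated best with their own number. No label says that the replicate numbers pair the samples, and these values do not settle it. With the replicate block Bckdk had an adjusted p of 0.107. The count-model tests planned on back-calculated reads were not run, as the deposited values are FPKM. The members had at least 419 reads each in every library, and an effect of depth on them was not tested.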

Other observations

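The lengths by which FPKM were divided exceed those of the main transcripts for some of the 10 genes. The table gives Hibadh 10179 bases and Mccc1 10952 bases, 5.58 and 4.46 times the length of their principal transcripts in GENCODE M21, against 1.01 times for Dbt and 2.20 times for Bcat2, while for Bckdha the lengths are the same. If every read came from the principal transcript, Hibadh would be first of the 10 at 219 FPKM in place of 39.2, and Mccc1 would be at 52.3 in place of 11.7. The ratio of Mccc1 to Mccc2 would then be 1.12 to 1.54 over the 8 libraries. The order of levels given above therefore depends on the gene models, while a ratio of FPKM between the groups does not involve the length.

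Over the 8 libraries, the protein-coding genes with a mean of at least 1 FPKM whose log2 values were most like those of Bckdk were Ubn1, Ppp6r2, Ecpas, Birc6 and Zfp398, with Pearson coefficients of 0.98 to 0.99, the highest of 10082. All 5 had lower means in OGTBKO tissue, the groups' difference being part of the likeness. Among neighbours within 10 kb of the members, named after their values were seen, Exosc5, which starts 183 bases from Bckdha on the opposite strand, was higher in OGTBKO tissue (log2 0.66, limma adjusted p = 0.0159). Bdp1, 2355 bases from Mccc2 on the same strand, was lower (log2 -0.49, adjusted p = 0.0229). Kat8, 2295 bases from Bckdk on the same strand, did not pass (log2 0.13, adjusted p = 0.419).

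White adipocyte markers, 4 in all, summed to 51.4 to 123 FPKM in WT and 155 to 202 FPKM in OGTBKO libraries, with 2 of 4 higher. Adipocyte markers summed to 1236 to 1750 and 1676 to 2023 FPKM, brown adipocyte markers to 2840 to 4228 and 2747 to 3144 FPKM, endothelial markers to 85.0 to 111 and 106 to 116 FPKM, macrophage markers to 135 to 281 and 189 to 493 FPKM, fibroblast markers to 195 to 255 and 141 to 350 FPKM, and Schwann cell markers to 39.4 to 58.3 and 32.4 to 44.8 FPKM. B cell and T cell markers summed to at most 1.44 and 0.625 FPKM in any library. The part of tissue make-up in the values of the 10 genes was not tested.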
